A study of Drosophila melanogaster with 47 samples.

Results

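The difference between the mating response of Actin control guts and the mating response of esg-Gal4 whole guts was measured in 16 of the 47 samples of the series. All 16 were RNA-seq libraries of dissected midguts of adult female Drosophila melanogaster. The members were chosen by label, and for each gene the log2 change with mating in the Actin control guts had the log2 change with mating in the esg-Gal4 whole guts subtracted from it. The 4 groups were mated Actin control, unmated Actin control, mated esg-Gal4 whole gut and unmated esg-Gal4 whole gut, with 4 libraries each and a pool of 15 guts per library. Actin control flies carried Actin-Gal4, a driver active throughout the body, and were the controls of flies that also carried an EcR RNAi construct, while whether they carried a control construct is not given. The other flies carried esg-Gal4, a driver active in intestinal stem cells and their undifferentiated daughters, and the whole gut was taken. Mated females had been kept for 48 h with as many males, and unmated females had been kept apart from males since they hatched from the pupa, with age and genotype matched. For the Actin flies the series text gives 5 days at 29 °C before mating and 25 °C during mating, and for the esg-Gal4 flies no temperature is given. The driver, the temperatures and the experiment differ together between both sides of the difference, so their parts cannot be told apart.

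In female flies, mating is followed by a remodelling of the midgut. Seminal peptides, juvenile hormone and ecdysone are known to act on it, and the gut of mated females grows and adjusts its digestion and lipid metabolism to egg production. The midgut epithelium consists of absorptive enterocytes, which make digestive enzymes and transporters, of hormone-secreting enteroendocrine cells, and of the progenitors that renew both, and it is wrapped in visceral muscle. The comparison asks whether whole guts of separate experiments, with different drivers, change in the same way when females mate.

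Library depth, as the sum of counts over genes, spanned 21593637 to 28299266 for mated Actin control, 21301423 to 29800901 for unmated Actin control, 16997582 to 24527185 for mated whole gut and 13712654 to 22340841 for unmated whole gut. Both tables together held 10103 shared genes, of which 9209 had counts high enough to test. Levels are given as CPM, the field's usual scaling of counts to a common library size, after trimmed mean of M values (TMM) scaling, in the order of libraries 1 to 4. Changes are log2 values from 1 edgeR quasi-likelihood fit of the 16 libraries, with a standard error (SE), and adjusted p is the Benjamini-Hochberg value across all 9209. A gene is said to be called, or to have risen or fallen, where the adjusted p is under 0.05. In the difference of mating responses, higher means that the log2 change with mating was more positive in Actin control guts than in whole guts, and lower means the reverse. Directions follow the deposited labels of mating state, and opposite responses cannot be told apart from an exchange of these labels in 1 of the experiments. The mean correlation of log2 CPM between a library and the others of its group was 0.9775 to 0.9903. The lowest belonged to mated whole gut library 3.

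Of the 9209 genes, 748 differed in their mating response, which is 8.12% of those tested, and 372 of them differed by more than 2-fold. The log2 difference was higher for 291 genes (3.16%) and lower for 457 (4.96%). Upper quartile scaling in place of TMM gave 347 higher and 335 lower. By itself, mating in Actin control guts called 152 genes (1.65% of those tested), 60 higher (0.652%) and 92 lower (0.999%). Mating in whole guts called 609 genes (6.61%), 329 higher (3.57%) and 280 lower (3.04%), or 260 higher and 354 lower with upper quartile scaling. Of the 748 genes, 51 were also called for mating in Actin controls alone, 346 in whole guts alone and 75 in both, while 276 were called in neither. Without mated Actin control library 2 the number of genes called in the difference was 481, and without mated whole gut library 3 it was 1155.

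All 75 genes called in both mating comparisons had moved in opposite directions. Mated guts had less of 47 transcripts in Actin controls and more of them in whole guts, and more of 28 in Actin controls and less of them in whole guts. By edgeR 0 genes were called in both in the same direction, while DESeq2 called 11 in the same direction and 142 in opposite directions. At an unadjusted p under 0.05 in both comparisons, 92 genes had the same direction and 424 opposite directions. The 75 genes made up 49.3% of those called in Actin controls and 12.3% of those called in whole guts. Their number was 25 to 98 when each library was left out in turn. It was 25 to 46 without any one of the mated Actin control libraries, 32 and 40 without unmated Actin control libraries 2 and 3, 46 without mated whole gut library 4, and 42 and 48 without unmated whole gut libraries 3 and 4. In Actin control guts the mated and unmated libraries did not overlap for 72 of the 75 genes, and in whole guts for 65, against 13.6% and 11.3% of all tested genes. The 75 genes were called between these same libraries, so this separation follows largely from the call and adds no support. Over all 9209 genes the changes with mating in both experiments had a Pearson correlation of -0.175 and a Spearman correlation of -0.164. These are across genes within the same 16 libraries, and DESeq2's estimates gave a Pearson correlation of 0.0271, so no relation over all genes is read from them.

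**Figure D1:**
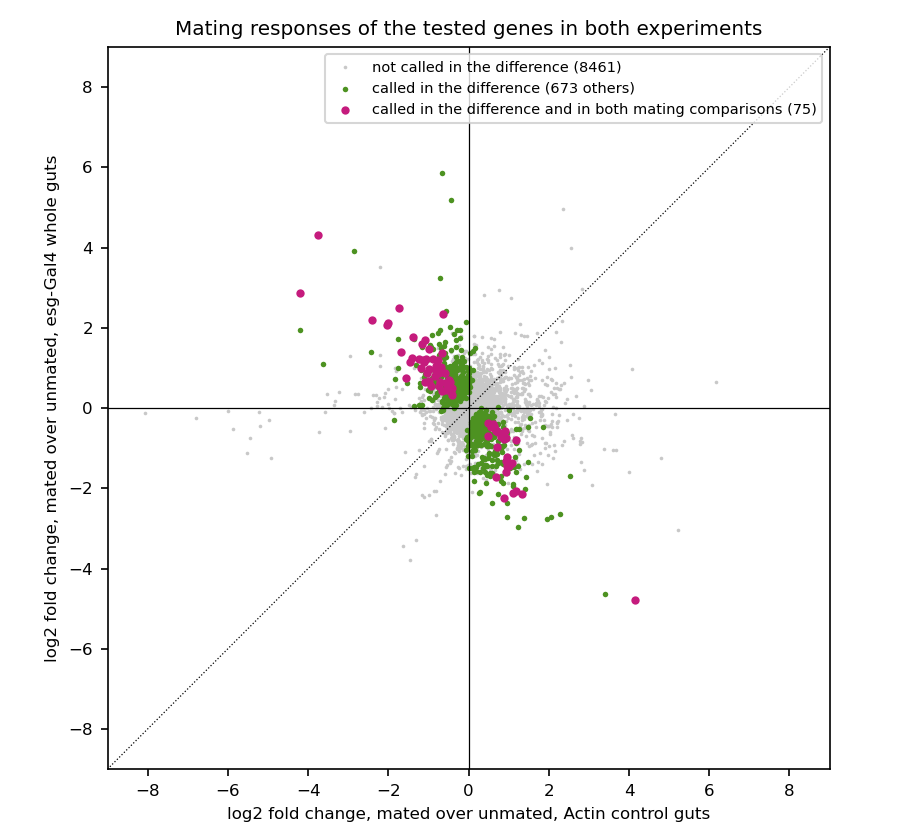
Log2 fold change of mated over unmated guts for each of the 9209 tested genes, in Actin control guts (horizontal axis) and in esg-Gal4 whole guts (vertical axis), with genes called in the difference in green and those also called in both mating comparisons in magenta. The 75 magenta points all lie in the quadrants of opposite sign, away from the dotted line of equal change.

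The gene with the smallest adjusted p was Cyp28d1 (FBgn0031689; chromosome 2L, 5210460 to 5212445, plus strand), a cytochrome P450 of the kind that oxidises foreign compounds. Its level was 68.7, 70.9, 62.3 and 67.1 CPM in mated Actin control guts, against 279, 260, 307 and 229 CPM in unmated ones. In whole guts it was 327, 211, 300 and 360 CPM when mated, against 59.4, 72.8, 69.3 and 72.5 CPM when unmated. Mated Actin control and unmated whole guts thus shared the low range, unmated Actin control and mated whole guts the high one, and the mated and unmated libraries of neither experiment overlapped. Cyp28d1 fell with mating by 2.00 in Actin control guts and rose by 2.13 in whole guts on the log2 scale, and the log2 difference was -4.13 (SE 0.20, adjusted p = 9.59e-09).

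Cbs (FBgn0031148; chromosome X, 21045138 to 21049096, plus strand), which encodes cystathionine beta-synthase, the first enzyme of the path that turns homocysteine into cysteine, had the same arrangement with little spread. It stood at 25.4, 23.9, 30.9 and 26.5 CPM in mated and 41.7, 45.6, 45.3 and 48.8 CPM in unmated Actin control guts. Whole guts gave 54.1, 59.2, 58.3 and 65.9 CPM when mated and 22.9, 27.9, 28 and 24.5 CPM when unmated. All 4 mated Actin control libraries were below the unmated ones and all 4 mated whole gut libraries were above theirs, with a log2 difference of -1.97 (SE 0.14, adjusted p = 6.62e-07). CG6012 was likewise lower, at 16.3, 10.8, 11.8 and 14.6 CPM in mated and 21.5, 21.4, 20.4 and 19.7 CPM in unmated Actin control guts, against 11.6, 10.7, 8.73 and 13 CPM in mated and 1.82, 2.83, 1.86 and 2.19 CPM in unmated whole guts. The log2 difference of CG6012 was -2.97 (SE 0.22, adjusted p = 1.26e-06).

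The reverse arrangement was clearest for a pair of neighbouring alkaline phosphatase genes on chromosome 3L, whose enzymes remove phosphate groups at the cell surface. Alp10 (FBgn0035619; chromosome 3L, 5592741 to 5595272, minus strand) had 791, 905, 914 and 920 CPM in mated and 544, 389, 482 and 505 CPM in unmated Actin control guts. In whole guts it had 444, 306, 393 and 383 CPM when mated and 1732, 1577, 2161 and 1769 CPM when unmated. Mated libraries were all above the unmated ones in Actin controls and all below them in whole guts, and the log2 difference was 3.12 (SE 0.19, adjusted p = 1.59e-07). Alp9 (FBgn0035620; chromosome 3L, 5595542 to 5597422, plus strand) had 496, 565, 697 and 671 CPM in mated and 323, 188, 316 and 302 CPM in unmated Actin control guts, and 325, 268, 312 and 256 CPM in mated and 1286, 1013, 1535 and 1223 CPM in unmated whole guts. Its groups were likewise apart in both experiments, and its log2 difference was 3.23 (SE 0.25, adjusted p = 1.48e-06). CG1532 was also higher, by 2.18 (SE 0.17, adjusted p = 1.48e-06). Its groups did not overlap in either experiment.

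Beyond those chosen by their adjusted p, the 75 genes included enzymes of central metabolism, which were picked out after their values had been seen. fbp, the fructose-1,6-bisphosphatase of gluconeogenesis, was at 13.6, 8.77, 10.9 and 12.7 CPM in mated and 20.6, 24.9, 20.6 and 18.9 CPM in unmated Actin control guts, and at 38.5, 58.5, 36.7 and 40.1 CPM in mated and 19.6, 22.6, 16.9 and 16.1 CPM in unmated whole guts. It thus fell with mating in Actin controls and rose in whole guts, with a log2 difference of -2.10 (SE 0.24, adjusted p = 8.41e-05). The same order held for Sodh-1, a sorbitol dehydrogenase, at -2.76 (SE 0.38, adjusted p = 0.000454), and for AOX1, an aldehyde oxidase, at -1.45 (SE 0.16, adjusted p = 6.92e-05). Higher in the difference were PCB, the pyruvate carboxylase that also feeds gluconeogenesis, at 1.48 (SE 0.22, adjusted p = 0.000627), and Gs2, a glutamine synthetase, at 1.28 (SE 0.19, adjusted p = 0.000568). The 2 gluconeogenic enzymes fbp and PCB thus moved in opposite directions within each experiment.

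**Figure D2:**
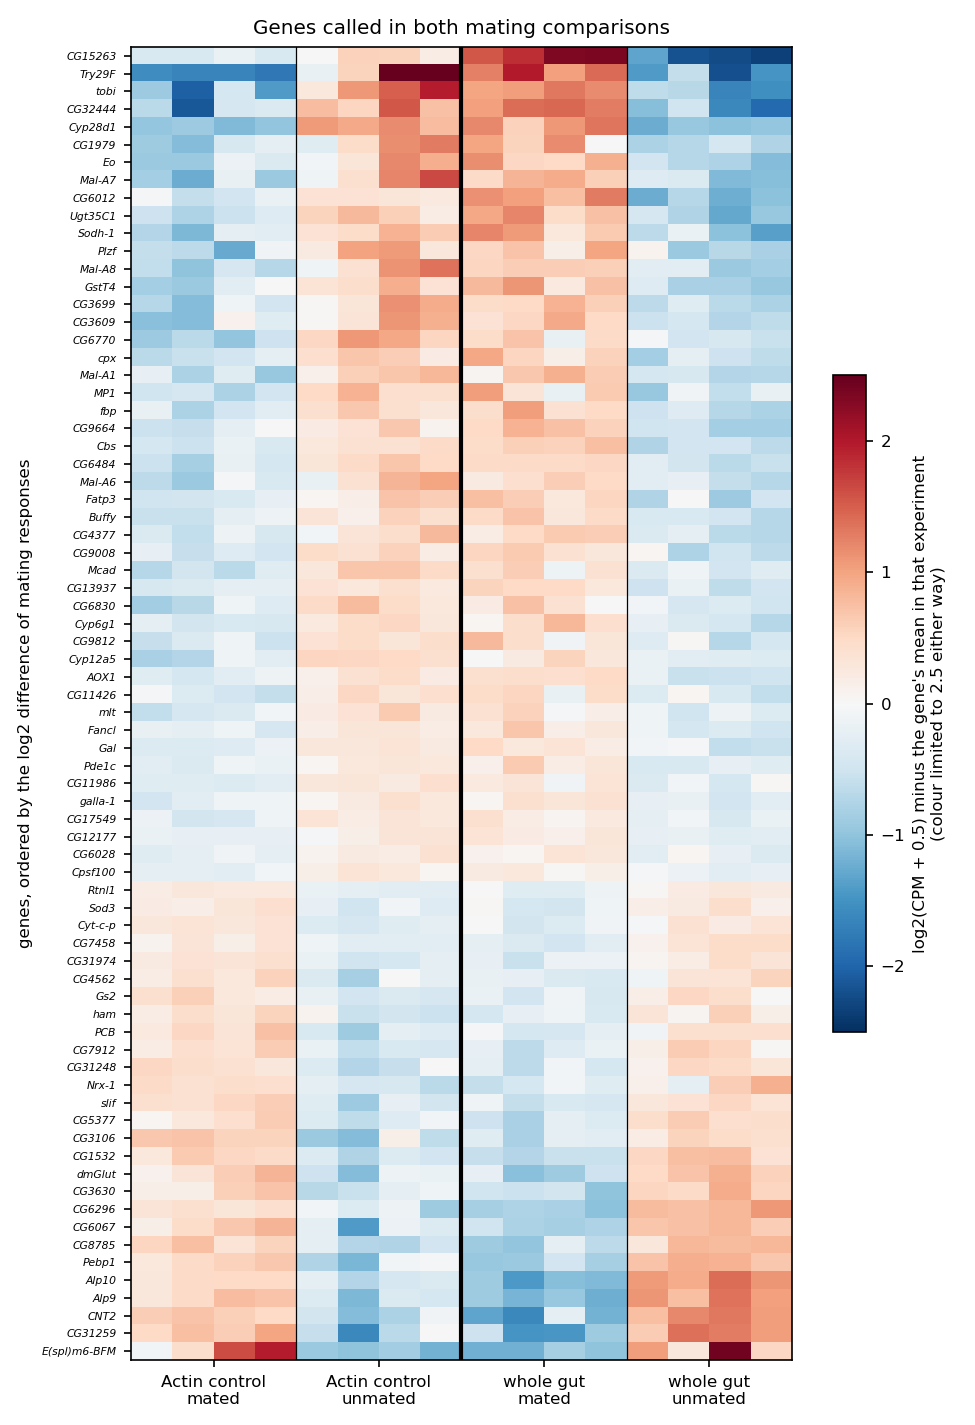
Each of the 74 rows is 1 of the genes called in both mating comparisons and each column 1 of the 16 libraries, with colour for log2(CPM + 0.5) minus the mean of that gene over the 8 libraries of its experiment. In the upper 47 rows the mated Actin control libraries are mostly blue and the mated whole gut libraries mostly red, and in the lower 27 rows these colours are exchanged.

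A further mating comparison shares no library with either side. It is that of the guts labelled EcR RNAi from the Actin experiment, and it was added after the other results were known. In this fit of 24 libraries mating called 620 of 9285 genes there (6.68%), 290 higher (3.12%) and 330 lower (3.55%). Of the 75 genes, all 75 had the sign of the Actin control response and none that of the whole gut response, and 67 were called, each with the sign of the Actin controls. Among all 9209 genes, 67.2% had the sign of the Actin controls and 37.6% that of the whole guts. Of the 748 genes that differed, 706 (94.4%) had the sign of the Actin controls, 306 were called and 305 of these had the sign of the Actin controls. Cyp28d1 changed with mating by -2.22 in the EcR RNAi guts on the log2 scale, Cbs by -0.98 and Alp10 by 0.73. Control and EcR RNAi guts shared the Actin driver, the temperatures and the experiment, so which of these goes with the shared direction cannot be told apart.

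**Figure D3:**
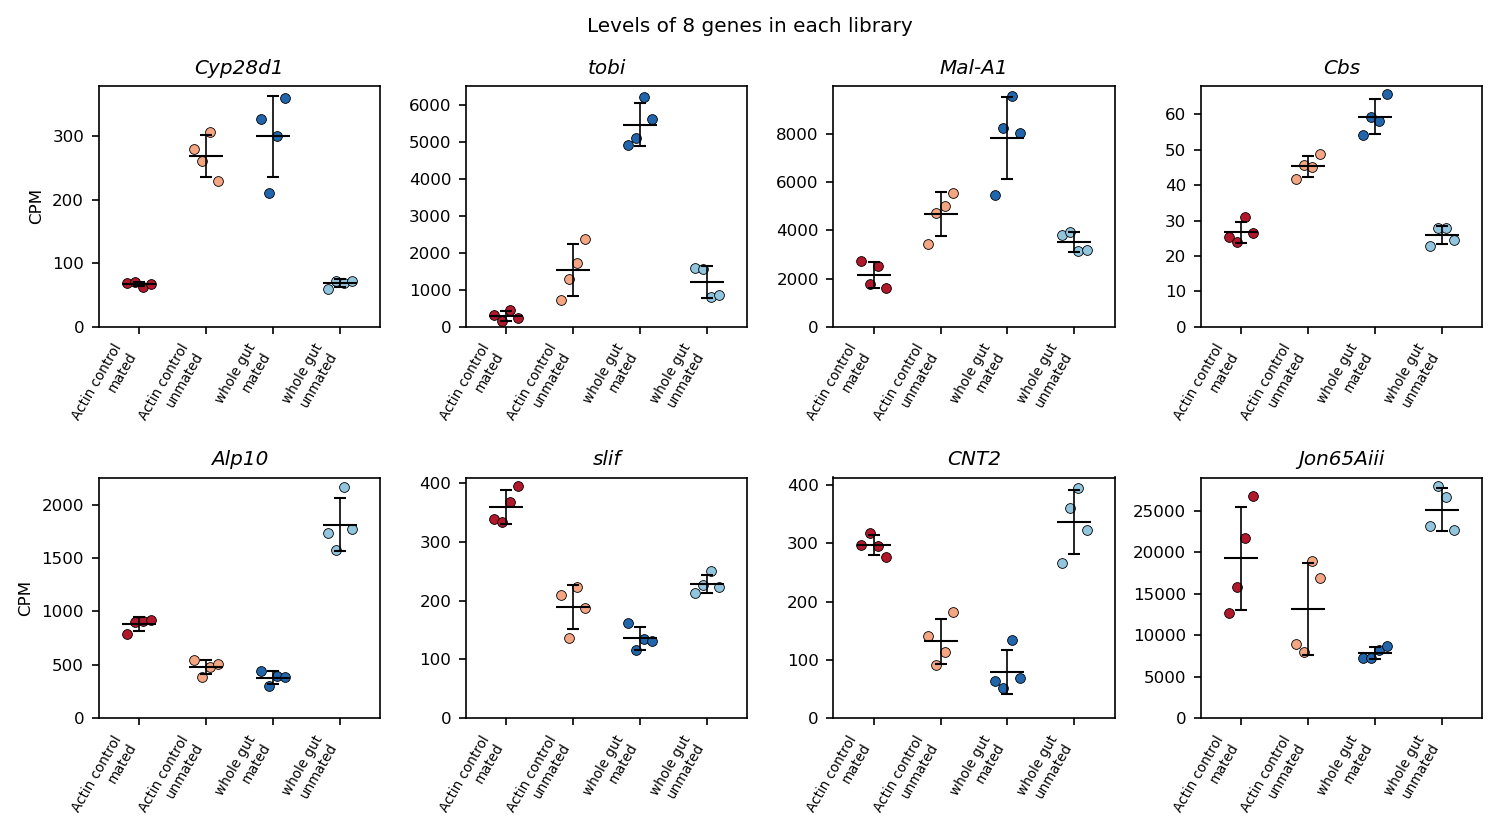
CPM of 8 genes in the 16 libraries, 1 point per library, with the mean and SD of the 4 libraries of each group as a bar and whiskers. Cyp28d1, tobi, Mal-A1 and Cbs are low in mated Actin control and high in mated whole guts, and Alp10, slif, CNT2 and Jon65Aiii the reverse, with overlapping Actin control groups for Jon65Aiii.

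Among genes whose log2 CPM averaged 3 or more, the 8 lowest differences were those of Try29F, CG34040, Amyrel, CG15199, tobi, CG32444, Cyp28d1 and Mal-A7. Amyrel, tobi and Mal-A7 digest starch or sugars, and Try29F belongs to the trypsin family. Try29F stood at 2.93, 2.69, 2.70 and 2.38 CPM in mated and 8.31, 14.3, 100 and 76.1 CPM in unmated Actin control guts, and at 49.7, 83.3, 42.4 and 55.6 CPM in mated and 7.44, 13.5, 4.07 and 7.12 CPM in unmated whole guts. Neither experiment's groups overlapped, and its log2 difference was -7.06 (SE 0.98, adjusted p = 0.000683). Unmated Actin control libraries 3 and 4 were far above libraries 1 and 2 of that group. CG34040 had a log2 difference of -6.78 (SE 0.99, adjusted p = 0.000983), CG15199 one of -4.72 (SE 0.79, adjusted p = 0.00234) and CG32444 one of -4.23 (SE 0.55, adjusted p = 0.000351). CG15199 fell with mating in Actin controls, at -3.62 (SE 0.58, adjusted p = 0.00876), while its change in whole guts was 1.10 (SE 0.55, adjusted p = 0.278).

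The 8 highest differences were those of Alp2, Jon25Bii, CG31324, CG31259, Jon25Bi, CNT2, Alp9 and CG32751, ahead of Alp10. CNT2 encodes a concentrative nucleoside transporter. It had 297, 318, 296 and 276 CPM in mated and 141, 91.4, 113 and 182 CPM in unmated Actin control guts, and 63.2, 51.5, 135 and 69.4 CPM in mated and 266, 361, 395 and 323 CPM in unmated whole guts. The groups of CNT2 did not overlap in either experiment, and its log2 difference was 3.25 (SE 0.38, adjusted p = 0.000114). CG31259 had 164, 197, 178 and 230 CPM in mated and 78.3, 37.7, 72.8 and 118 CPM in unmated Actin control guts, against 69, 35, 35.8 and 53.1 CPM in mated and 153, 256, 241 and 205 CPM in unmated whole guts, with a log2 difference of 3.48 (SE 0.42, adjusted p = 0.000184). CG31324 differed by 4.13 (SE 0.70, adjusted p = 0.0024) and CG32751 by 3.15 (SE 0.50, adjusted p = 0.00155).

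Counts of called genes in the lists below stand against 3.16% higher and 4.96% lower over all tested genes. A few calls in a list are therefore not read as a response of that list. Enzymes that digest starch and sugars were mostly lower in the difference. Of 14 amylases and maltases tested, 10 were lower in the difference and none higher, with a median log2 difference of -1.56 against -0.005 over all tested genes. With mating, 5 of them fell and none rose in Actin control guts (median -0.69), while 10 rose and none fell in whole guts (median 0.79). Their summed level was 7682 to 12531 CPM in mated and 13336 to 26138 CPM in unmated Actin control guts, and 27325 to 42509 CPM in mated and 16239 to 20949 CPM in unmated whole guts. The summed ranges of mated and unmated libraries did not overlap in either experiment.

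tobi (FBgn0261575; chromosome 3R, 25344761 to 25346921, minus strand) is an alpha-glucosidase known as a target of brain insulin. It had 328, 149, 452 and 230 CPM in mated and 732, 1292, 1728 and 2382 CPM in unmated Actin control guts. Whole guts gave 4917, 5104, 6199 and 5624 CPM when mated and 1598, 1548, 793 and 860 CPM when unmated. The mated Actin control libraries were the lowest and the mated whole gut libraries the highest of all 16, and the log2 difference was -4.59 (SE 0.54, adjusted p = 0.00015). Mal-A1, a maltase that cleaves disaccharides to glucose, followed the same order with 2715, 1792, 2523 and 1615 CPM in mated and 3421, 4729, 5012 and 5541 CPM in unmated Actin control guts. In whole guts Mal-A1 had 5481, 8243, 9599 and 8038 CPM when mated and 3815, 3957, 3143 and 3187 CPM when unmated. Its groups did not overlap within either experiment, and its log2 difference was -2.27 (SE 0.29, adjusted p = 0.000181).

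Further maltases were Mal-A7, with a log2 difference of -3.09 (SE 0.48, adjusted p = 0.000957), Mal-A8, with -2.62 (SE 0.37, adjusted p = 0.00039), and Mal-A6, with -1.91 (SE 0.33, adjusted p = 0.00175). These 3 fell with mating in Actin controls and rose in whole guts. Amyrel, a relative of amylase, differed mainly on the whole gut side. It had 2.80, 0.702, 7.36 and 0.424 CPM in mated and 4.50, 5.17, 2.72 and 2.98 CPM in unmated Actin control guts, which overlapped, and 119, 231, 360 and 219 CPM in mated and 10.4, 9.48, 3.37 and 2.93 CPM in unmated whole guts, which did not. The log2 difference of Amyrel was -5.61 (SE 0.98, adjusted p = 0.00316). The Mal-A genes are related copies that lie close together, and how reads were divided among copies was not measured, which holds also for the Jonah, trypsin, lysozyme and metallothionein genes below.

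Digestive proteases of the Jonah family had differences of the other sign. Of 17 tested, 9 were higher and none lower, with a median of 1.86, and all 17 values were positive. None was called with mating in Actin control guts by edgeR, where 1 was higher at an unadjusted p under 0.05 and 1 by DESeq2, while 9 fell and none rose in whole guts. The median change with mating was 0.32 in Actin controls and -1.50 in whole guts. The summed level was 60598 to 151588 CPM in mated and 50434 to 113337 CPM in unmated Actin control guts, which overlapped, and 49949 to 54908 CPM in mated and 137327 to 173562 CPM in unmated whole guts, which did not. In both mating states, Actin control libraries 3 and 4 had higher sums than libraries 1 and 2. Within libraries 1 and 2, the sums were 60598 and 82612 CPM when mated, above the 55121 and 50434 CPM when unmated. Within libraries 3 and 4 they were 132016 and 151588 CPM when mated, above the 113337 and 99787 CPM when unmated. The labels do not mark these 2 sets, which were seen in the data, so the order within them is no test of mating. Among genes described below that were higher in the difference, that order did not hold throughout for several. Examples are epsilonTry, betaTry, LManVI, bmm, Alp2, CG17192, Lip4 and Keap1.

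Jon65Aiii had 12749, 15875, 21724 and 26748 CPM in mated and 8972, 7984, 18919 and 16916 CPM in unmated Actin control guts. In whole guts it had 7258, 7230, 8257 and 8747 CPM when mated and 23186, 27973, 26644 and 22735 CPM when unmated. The Actin control groups overlapped, and the change with mating there was not called (adjusted p = 0.313). Mated libraries were above unmated ones within libraries 1 and 2 and within libraries 3 and 4. Every mated whole gut library was below every unmated one, and the log2 difference was 2.22 (SE 0.38, adjusted p = 0.00162). For yip7, a relative of the Jonah genes, the log2 difference was 1.88 (SE 0.28, adjusted p = 0.000674). Jon25Bii (FBgn0031654; chromosome 2L, 4952243 to 4953136, minus strand) had 782, 1370, 2724 and 3211 CPM in mated and 205, 146, 801 and 939 CPM in unmated Actin control guts, against 741, 562, 984 and 819 CPM in mated and 4529, 6638, 5609 and 4440 CPM in unmated whole guts. Mated Actin control libraries of Jon25Bii were likewise above unmated ones within both sets. The log2 difference of Jon25Bii was 4.72 (SE 0.80, adjusted p = 0.00233), whereas that of Jon25Bi was 3.32 (SE 0.95, adjusted p = 0.048) and lost its call under 13 of 24 other settings.

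The trypsins did not share a direction. Of 13 tested, 2 were higher, 1 was lower and 10 were not called, with a median of 0.26. Higher were epsilonTry, at 1.61 (SE 0.34, adjusted p = 0.00698), and betaTry, at 0.98 (SE 0.28, adjusted p = 0.0401), which lost its call under 11 settings, and lower was Try29F, described above. LysB, a lysozyme that breaks bacterial cell walls, was the 1 called gene among 7 lysozymes, at 2.21 (SE 0.62, adjusted p = 0.0429), and lost its call under 11 settings. LysB had 2289, 2703, 3968 and 4605 CPM in mated and 1553, 1172, 3087 and 3620 CPM in unmated Actin control guts, all far above the 40.5, 36.1, 46.2 and 29.5 CPM in mated and 62, 62.8, 132 and 232 CPM in unmated whole guts.

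Lysosomal mannosidases trim sugar chains of glycoproteins. Of 10 lysosomal mannosidases and galactosidases, 3 were higher and 1 lower, with a median of 1.15. LManII had 1663, 2189, 2792 and 2824 CPM in mated and 1504, 1438, 1911 and 1840 CPM in unmated Actin control guts, and 1134, 1038, 698 and 967 CPM in mated and 2031, 1968, 2356 and 2068 CPM in unmated whole guts. Its groups were apart in whole guts and overlapped in Actin controls, where the change with mating was not called (adjusted p = 0.179). Mated Actin control libraries of LManII were above unmated ones within libraries 1 and 2 and within 3 and 4. The log2 difference was 1.64 (SE 0.25, adjusted p = 0.000721). LManVI differed by 1.82 (SE 0.35, adjusted p = 0.00452) and LManV by 1.44 (SE 0.38, adjusted p = 0.0314), the second losing its call under 10 settings. The lower member was Gal, a beta-galactosidase, with 262, 263, 264 and 300 CPM in mated and 406, 404, 423 and 387 CPM in unmated Actin control guts, and 532, 452, 476 and 425 CPM in mated and 357, 367, 244 and 257 CPM in unmated whole guts. The groups of Gal were apart in both experiments, and its log2 difference was -1.20 (SE 0.18, adjusted p = 0.000627).

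Alkaline phosphatases included 5 higher and no lower members among 8 tested, with a median of 0.65. Besides Alp9 and Alp10 these were Alp2, at 4.94 (SE 1.02, adjusted p = 0.00951), Alp5, at 0.72 (SE 0.17, adjusted p = 0.0147), and Alp6, at 0.59 (SE 0.16, adjusted p = 0.0369), and Alp6 lost its call under 12 settings. Alp2 varied widely among the mated Actin control libraries, with 56, 36.5, 9.53 and 2.76 CPM, against 7.75, 5.92, 2.33 and 5.67 CPM in unmated ones, and it had 11.2, 7.32, 22.6 and 6.98 CPM in mated and 83, 98.2, 64.1 and 57.2 CPM in unmated whole guts. Its groups overlapped in Actin controls and were apart in whole guts.

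Transporters of amino acids and sugars gave 3 higher and 1 lower among 20 nutrient transporters, with a median of 0.45. slif (FBgn0037203; chromosome 3L, 22881045 to 22893821, plus strand), slimfast, imports basic amino acids and acts upstream of TOR signalling. It had 339, 334, 368 and 395 CPM in mated and 210, 137, 223 and 187 CPM in unmated Actin control guts, and 162, 116, 135 and 131 CPM in mated and 213, 226, 250 and 223 CPM in unmated whole guts. No libraries of slif overlapped within an experiment, and the log2 difference was 1.67 (SE 0.19, adjusted p = 0.000101). It shares positions with other genes on its own strand, so some reads may belong to them. path, a growth-promoting amino acid transporter, differed by 1.25 (SE 0.22, adjusted p = 0.00194), and CG8785, listed with the transporters related to path, by 2.46 (SE 0.25, adjusted p = 3.66e-05). CG1139, also listed with them, was the lower member, with 11.3, 1.87, 6.53 and 4.72 CPM in mated and 13, 17.1, 16.7 and 16.4 CPM in unmated Actin control guts, against 38.3, 70.8, 43.5 and 47.4 CPM in mated and 23.3, 19, 9.30 and 9.63 CPM in unmated whole guts. The log2 difference of CG1139 was -3.07 (SE 0.60, adjusted p = 0.00602), opposite in sign to the other 3.

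**Figure D4:**
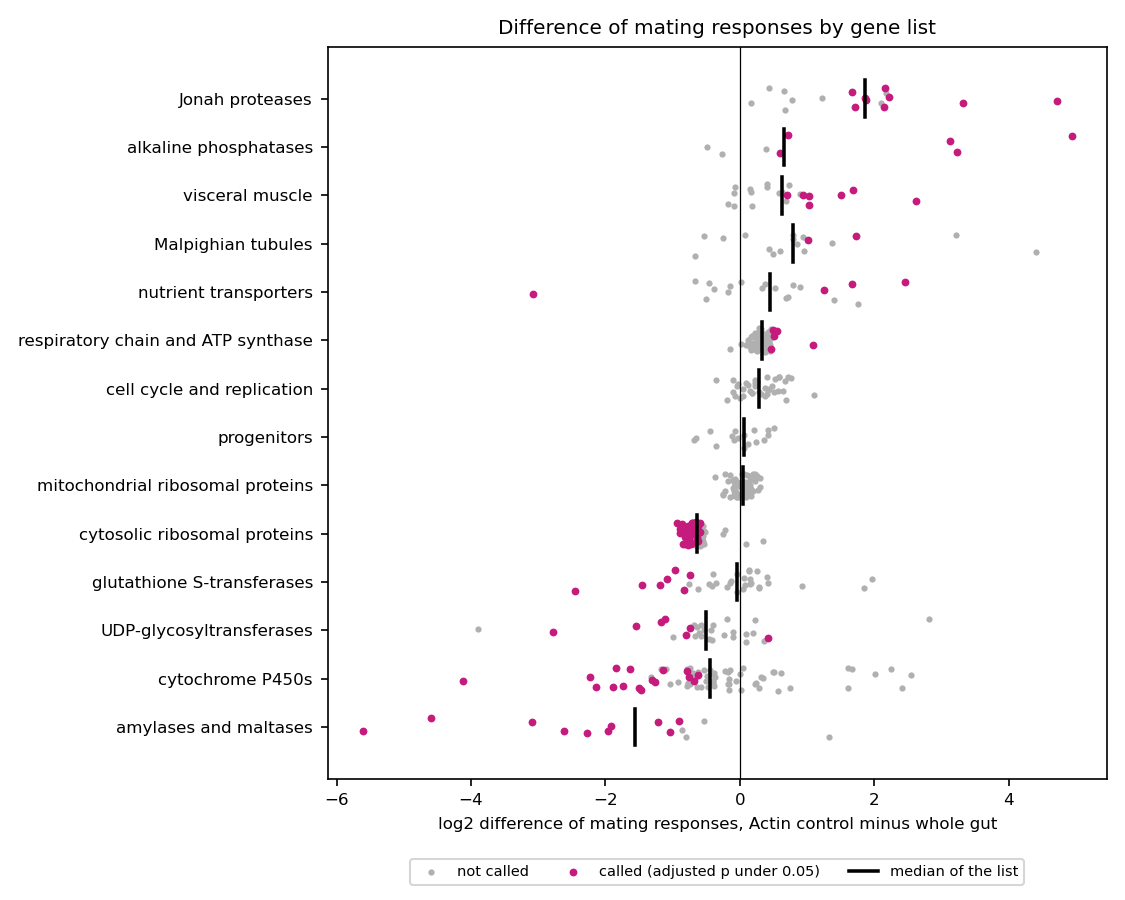
Log2 difference of mating responses, Actin control minus whole gut, for every tested member of 14 gene lists, with called genes in magenta and the median of the list as a black bar. Called amylases, maltases, cytochrome P450s and glutathione S-transferases lie left of 0, and called Jonah proteases, alkaline phosphatases and visceral muscle genes right of it.

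Genes of sterol and fat handling were split. Of 11 sterol uptake genes, 3 were lower and 1 higher, with a median of -0.11. Npc1b, which the gut needs to absorb sterol, had 1278, 1221, 1198 and 1535 CPM in mated and 1274, 1172, 1429 and 996 CPM in unmated Actin control guts. Whole guts gave 1070, 1691, 1544 and 1288 CPM when mated and 597, 614, 421 and 441 CPM when unmated. The Actin control groups overlapped, all mated whole gut libraries were above the unmated ones, and the log2 difference was -1.33 (SE 0.24, adjusted p = 0.00227). Npc2e, a sterol-binding protein, differed by -1.96 (SE 0.32, adjusted p = 0.00138) in the same way, and mag, a secreted lipase and sterol esterase, by -1.68 (SE 0.42, adjusted p = 0.0247), losing its call under 5 settings. Npc2c was higher, at 8.04 (SE 1.41, adjusted p = 0.00218), but at no more than 1.37 CPM in mated Actin control and 4.01 CPM in unmated whole guts.

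Among 15 lipases, 3 were higher and 2 lower, mag being 1 of the lower, with a median of -0.37. bmm, brummer, the lipase that releases stored fat, had 197, 371, 306 and 508 CPM in mated and 200, 121, 408 and 304 CPM in unmated Actin control guts, and 127, 74.8, 122 and 126 CPM in mated and 251, 386, 365 and 363 CPM in unmated whole guts. Its Actin control groups overlapped while mated whole guts were all lower, and the log2 difference was 2.02 (SE 0.48, adjusted p = 0.0185). CG17192, a predicted lipase, differed by 2.79 (SE 0.51, adjusted p = 0.00334) and Lip4 by 1.29 (SE 0.23, adjusted p = 0.00217). Lip3, a lipase known to rise in starvation, was lower at -6.53 (SE 1.20, adjusted p = 0.00362), on levels of 0.58, 0.195, 0.333 and 0.053 CPM in mated and 0.982, 0.434, 0.322 and 0.196 CPM in unmated Actin control guts and 1.60, 10.4, 20.1 and 4.21 CPM in mated and 0.146, 0.212, 0.0581 and 0.186 CPM in unmated whole guts.

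Of 21 genes of lipid synthesis and storage, 2 were higher and 4 lower, with a median of -0.06. Lsd-1, the perilipin that coats lipid droplets, had 69.4, 149, 79.8 and 106 CPM in mated and 67.1, 44.9, 64.1 and 47.7 CPM in unmated Actin control guts, and 36, 17.4, 14.4 and 27.8 CPM in mated and 59, 111, 86.9 and 93.1 CPM in unmated whole guts. The groups of Lsd-1 were apart in both experiments, and its log2 difference was 2.72 (SE 0.43, adjusted p = 0.00123). Agpat3, an acyltransferase, was the other higher member, at 0.54 (SE 0.14, adjusted p = 0.0265). Fatp3, a fatty acid transport protein, was lower with 104, 108, 114 and 127 CPM in mated and 153, 166, 244 and 227 CPM in unmated Actin control guts, against 249, 228, 178 and 216 CPM in mated and 87.7, 148, 78.7 and 107 CPM in unmated whole guts. Its log2 difference was -1.85 (SE 0.27, adjusted p = 0.000454). The other lower members were Men, the malic enzyme, at -0.93 (SE 0.24, adjusted p = 0.0284), mdy, which makes triacylglycerol, at -0.84 (SE 0.22, adjusted p = 0.0313), and mino, a glycerol-phosphate acyltransferase, at -0.65 (SE 0.18, adjusted p = 0.0319). Agpat3, Men, mdy and mino lost their calls under 4, 6, 10 and 8 settings in that order.

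Fatty acid oxidation had 2 lower genes among 14, with a median of -0.07. Mcad, the medium-chain acyl-CoA dehydrogenase, had 314, 376, 327 and 419 CPM in mated and 632, 841, 840 and 720 CPM in unmated Actin control guts, and 570, 666, 396 and 564 CPM in mated and 336, 404, 309 and 353 CPM in unmated whole guts. The Actin control groups did not overlap and the whole gut groups did, and the log2 difference was -1.73 (SE 0.22, adjusted p = 0.000177). whd, withered, the carnitine palmitoyltransferase that lets fatty acids enter mitochondria, differed by -2.38 (SE 0.48, adjusted p = 0.00658). Unmated Actin control library 4 had 429 CPM of whd against 796 to 1318 CPM in the other unmated libraries, and mated whole gut library 3 had 334 CPM against 727 to 781 CPM in the other mated ones.

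These libraries also had the lowest level in their groups of Thor, the translation inhibitor 4E-BP and a target of FOXO. Thor had 301, 454, 200 and 409 CPM in mated and 851, 972, 649 and 447 CPM in unmated Actin control guts, and 581, 492, 279 and 770 CPM in mated and 319, 332, 255 and 263 CPM in unmated whole guts. Its log2 difference was -1.96 (SE 0.44, adjusted p = 0.0117), and its groups overlapped in both experiments. Among 14 regulators of insulin and TOR signalling, Thor, Lnk and REPTOR-BP were lower and Ilp3 higher, with a median of -0.09. Lnk, an adaptor of the insulin receptor, differed by -0.80 (SE 0.21, adjusted p = 0.0259), REPTOR-BP, a partner of a transcription factor that TOR restrains, by -0.64 (SE 0.19, adjusted p = 0.0495), and Ilp3, an insulin-like peptide also made in gut muscle, by 2.39 (SE 0.63, adjusted p = 0.0287). These 3 lost their calls under 8, 16 and 7 settings in that order.

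Glycolysis had 3 lower and no higher genes among 13, with a median of -0.39. They were Pgi, the phosphoglucose isomerase, at -0.74 (SE 0.15, adjusted p = 0.00647), Pglym78, a phosphoglycerate mutase, at -0.55 (SE 0.12, adjusted p = 0.0107), and Gapdh2, a glyceraldehyde-3-phosphate dehydrogenase, at -0.61 (SE 0.16, adjusted p = 0.0271). Pgi had 103, 94.6, 114 and 114 CPM in mated and 122, 107, 149 and 123 CPM in unmated Actin control guts, and 165, 138, 179 and 149 CPM in mated and 107, 120, 108 and 109 CPM in unmated whole guts. All 4 mated whole gut libraries of Pgi were above the unmated ones, and the Actin control groups overlapped. Gapdh2 lost its call under 9 settings.

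Genes of detoxification were lower in the difference wherever they were called, with 1 exception. Cytochrome P450s gave 16 lower and no higher genes of 73 (median -0.44), glutathione S-transferases 7 lower and none higher of 34 (median -0.04), and UDP-glycosyltransferases 6 lower and 1 higher of 30 (median -0.50). DESeq2 called 2 P450s and 1 glutathione S-transferase higher as well, and without mated Actin control library 2 the lower calls were 10 P450s and 4 glutathione S-transferases. In Actin controls, mating called 6 P450s, 1 glutathione S-transferase and 1 UDP-glycosyltransferase lower and none higher. In whole guts it called 9 P450s higher and 3 lower, 6 glutathione S-transferases higher and none lower, and 7 UDP-glycosyltransferases higher and none lower.

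Cyp6g1, known for insecticide resistance, had 208, 179, 189 and 186 CPM in mated and 290, 340, 351 and 298 CPM in unmated Actin control guts. In whole guts it had 225, 295, 391 and 293 CPM when mated and 190, 170, 161 and 133 CPM when unmated. The groups were apart in both experiments with opposite order, and the log2 difference was -1.63 (SE 0.20, adjusted p = 0.000177). Cyp6a23 fell with mating in Actin controls and was not called in whole guts, with 52, 61.1, 71 and 70.6 CPM in mated and 166, 139, 136 and 155 CPM in unmated Actin control guts, against 285, 276, 277 and 264 CPM in mated and 270, 278, 240 and 251 CPM in unmated whole guts. Its whole gut groups overlapped, and the log2 difference was -1.31 (SE 0.14, adjusted p = 6.92e-05).

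GstT4, a glutathione S-transferase, had 221, 209, 334 and 398 CPM in mated and 507, 543, 749 and 511 CPM in unmated Actin control guts, and 741, 901, 499 and 697 CPM in mated and 333, 240, 239 and 216 CPM in unmated whole guts. No libraries overlapped within an experiment, and its log2 difference was -2.46 (SE 0.32, adjusted p = 0.000256). GstO2 differed by -0.75 (SE 0.14, adjusted p = 0.00432) and GstE7 by -0.97 (SE 0.20, adjusted p = 0.00632). Ugt35C1, which attaches sugars to small lipophilic molecules, had 59.6, 50.3, 58.7 and 68.7 CPM in mated and 127, 151, 129 and 98.1 CPM in unmated Actin control guts, and 316, 377, 221 and 269 CPM in mated and 121, 95.2, 66.4 and 83.6 CPM in unmated whole guts. Again the groups were apart in both experiments, and the log2 difference was -2.79 (SE 0.27, adjusted p = 2.38e-05). Ugt303A1 differed by -1.55 (SE 0.18, adjusted p = 0.000114) and Ugt304A1 by -1.18 (SE 0.17, adjusted p = 0.000454), while the exception was Ugt316A1, at 0.42 (SE 0.12, adjusted p = 0.0469), which lost its call under 16 settings.

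Metal handling genes gave 5 lower and 1 higher of 20, with a median of 0.04. Of the 5 lower genes, 4 were metallothioneins, small proteins that bind copper and other metals. MtnC had 54.9, 65.6, 61.5 and 63.4 CPM in mated and 137, 169, 267 and 302 CPM in unmated Actin control guts, and 186, 117, 96.3 and 164 CPM in mated and 76.8, 92.5, 72.9 and 97.3 CPM in unmated whole guts. It fell with mating in Actin controls, its whole gut groups overlapped, and the log2 difference was -2.56 (SE 0.34, adjusted p = 0.00027). MtnD differed by -1.56 (SE 0.30, adjusted p = 0.00472), with fewer transcripts in all 4 mated than in all 4 unmated Actin control libraries. MtnA differed by -1.41 (SE 0.34, adjusted p = 0.0182) and MtnE by -1.42 (SE 0.42, adjusted p = 0.0496), the second losing its call under 16 settings. Zip42C.1, a zinc importer of the gut, was lower at -2.04 (SE 0.36, adjusted p = 0.00232), and ATP7, which exports copper, was higher at 0.62 (SE 0.15, adjusted p = 0.0166).

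Antioxidant defence gave 2 higher and 2 lower of 16. Sod3, an extracellular superoxide dismutase, had 79.9, 77.8, 85.8 and 93.4 CPM in mated and 60.1, 48.9, 65.8 and 55.3 CPM in unmated Actin control guts, and 38, 27, 26.9 and 34.5 CPM in mated and 41.7, 43.2, 50.8 and 40.7 CPM in unmated whole guts. Its groups were apart in both experiments, and the log2 difference was 1.03 (SE 0.18, adjusted p = 0.00168). Keap1, the inhibitor of the stress factor CncC, was also higher, at 0.90 (SE 0.26, adjusted p = 0.0404), and lower were Cat, catalase, at -0.68 (SE 0.20, adjusted p = 0.046), and the peroxiredoxin Prx2540-1, at -2.14 (SE 0.53, adjusted p = 0.0208). Keap1 lost its call under 13 settings and Cat under 15, and Prx2540-1, which had at most 5.07 CPM in any library, has a close copy.

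Cytosolic ribosomal proteins were the list with the most called genes, each by a small amount. Of 83 tested, 36 were lower and none higher, the median log2 difference was -0.64, and 81 values were negative. Within Actin controls edgeR called none, although 77 were lower at an unadjusted p under 0.05 and DESeq2 called 14 lower (median -0.38). Within whole guts edgeR called 1 higher, 34 were higher at an unadjusted p under 0.05 and DESeq2 called 4 higher (median 0.28). Their summed level was 65008 to 78740 CPM in mated and 85258 to 98778 CPM in unmated Actin control guts, which did not overlap, and 79414 to 130493 CPM in mated and 77603 to 99734 CPM in unmated whole guts, which did.

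RpL21, a protein of the large subunit, had 833, 886, 727 and 834 CPM in mated and 1171, 1120, 989 and 1092 CPM in unmated Actin control guts, and 1237, 915, 784 and 1142 CPM in mated and 783, 837, 699 and 757 CPM in unmated whole guts. Mated Actin control libraries were all below the unmated ones, and of the mated whole guts library 3 fell within the unmated range. Its log2 difference was -0.82 (SE 0.18, adjusted p = 0.0104). RpL39 differed by -0.84 (SE 0.19, adjusted p = 0.011) and RpS14b, which has a near-identical copy, by -0.93 (SE 0.21, adjusted p = 0.0103). The count of lower ribosomal proteins was 7 with upper quartile scaling, 73 with DESeq2 and 79 with limma-voom. It was 79 without mated whole gut library 3 and 68 without unmated whole gut library 2, 30 without unmated Actin control library 3 and 34 without mated whole gut library 2, and 6 to 21 without any one of the other 12 libraries. None of 74 mitochondrial ribosomal proteins was called in the difference by edgeR or DESeq2 or reached an unadjusted p under 0.05, and their median was 0.04. Non1 was the 1 called gene of 24 for the nucleolus and Myc, at -0.62 (SE 0.16, adjusted p = 0.0315), and lost its call under 13 settings.

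Genes of the respiratory chain and ATP synthase lay slightly on the higher side. Of 70 tested, 5 were higher and none lower, 69 values were positive and the median was 0.32. The share called higher was above the 3.16% of all tested genes called higher, and below the 8.12% called in either direction. At an unadjusted p under 0.05, 37 were higher and 0 lower in the difference. For mating at that limit, 17 were higher and 0 lower in Actin controls, and 1 was higher and 18 lower in whole guts. Cyt-c-p, cytochrome c, had 417, 435, 415 and 439 CPM in mated and 271, 255, 279 and 294 CPM in unmated Actin control guts, and 231, 167, 184 and 217 CPM in mated and 228, 300, 268 and 293 CPM in unmated whole guts. The Actin control groups were apart, the whole gut groups overlapped only through mated library 1, and the log2 difference was 1.08 (SE 0.15, adjusted p = 0.000437). The remaining 4 were RFeSP, SdhD, ATPsynC and SdhA, with log2 differences of 0.55, 0.49, 0.50 and 0.46 in that order, and each lost its call under 9 to 16 settings. The count was 12 with DESeq2, 19 with the EcR RNAi libraries in the fit, and 1 without mated Actin control library 2, 3 or 4, unmated Actin control library 1 or 2, mated whole gut library 2, or unmated whole gut library 2 or 3. Of 19 subunits of the vacuolar ATPase, which acidifies the gut lumen, only Vha100-5 was called by edgeR, at 1.00 (SE 0.19, adjusted p = 0.00319), and DESeq2 called 3 higher. At an unadjusted p under 0.05, 11 were higher and 1 lower in the difference, and 16 values were positive with a median of 0.36. For mating at that limit, 12 were lower and 0 higher in whole guts, and 2 higher and 1 lower in Actin controls.

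EcR, the ecdysone receptor, had 7.31, 8.03, 9.57 and 8.64 CPM in mated and 7.29, 9.63, 7.59 and 8.36 CPM in unmated Actin control guts, and 14.5, 15, 13.4 and 10.7 CPM in mated and 14.2, 9.69, 13.6 and 11.9 CPM in unmated whole guts. All groups overlapped within their experiment, and the log2 difference was -0.09 (SE 0.20, adjusted p = 0.846). EcR shares positions with 11 other genes on its strand, so some of these reads may be theirs. Of 14 genes of the ecdysone pathway, Eip93F, an ecdysone-induced transcription factor, was the 1 called, at -0.69 (SE 0.19, adjusted p = 0.0403), and lost its call under 13 settings. Of 6 genes of the juvenile hormone pathway, Met, the hormone's receptor, was called. It had 17.7, 20.4, 21.5 and 21.5 CPM in mated and 24.5, 25.1, 23 and 20.8 CPM in unmated Actin control guts, and 19.5, 19.3, 17.6 and 17.1 CPM in mated and 13.6, 12, 16.4 and 14.3 CPM in unmated whole guts, with a log2 difference of -0.59 (SE 0.14, adjusted p = 0.0169). Mated whole guts had more Met than unmated ones in every library, and the Actin control groups overlapped.

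In 5 further lists, of signalling pathways and gut regional factors, 1 gene each was called, and these genes were named after their values had been seen. E(spl)m6-BFM, a Bearded-family gene that Notch switches on, was higher at 8.93 (SE 1.11, adjusted p = 0.000181), on low levels of 0.676, 1.17, 3.33 and 4.34 CPM in mated and 0.151, 0.118, 0.179 and 0.0489 CPM in unmated Actin control guts and 0.0381, 0.0376, 0.19 and 0.111 CPM in mated and 2.04, 0.99, 6.05 and 1.26 CPM in unmated whole guts. It was removed by the stricter filter on counts. Lower were spi, the EGF receptor ligand Spitz, at -0.74 (SE 0.19, adjusted p = 0.0256), Socs16D, of the family that damps JAK-STAT signalling, at -0.57 (SE 0.13, adjusted p = 0.0129), and Dronc, an initiator caspase, at -1.09 (SE 0.24, adjusted p = 0.0109). Dronc had 26.7, 31.1, 25.5 and 24.8 CPM in mated and 40.7, 56.2, 48.3 and 39.9 CPM in unmated Actin control guts, and its whole gut groups overlapped. GATAe, a transcription factor of the endoderm, was higher at 0.84 (SE 0.20, adjusted p = 0.0185).

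Of 21 markers of visceral muscle, 7 were higher in the difference and none lower, with a median of 0.63. For mating in Actin controls edgeR called none, while at an unadjusted p under 0.05 there were 2 higher and 1 lower, and DESeq2 called 1 higher (median 0.01). In whole guts 10 fell with mating and none rose (median -0.58). Their summed level was 3655 to 5410 CPM in mated and 3674 to 4786 CPM in unmated Actin control guts, which overlapped. It was 1851 to 2412 CPM in mated and 3262 to 3453 CPM in unmated whole guts, which did not. In pooled guts, fewer muscle cells and less muscle RNA per cell cannot be told apart, nor can they for any other cell type.

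Act87E (FBgn0000046; chromosome 3R, 13425983 to 13428375, plus strand), an actin gene of muscle, had 144, 149, 230 and 218 CPM in mated and 80.4, 77.4, 126 and 137 CPM in unmated Actin control guts. Whole guts gave 27.2, 47.9, 65.9 and 38.1 CPM when mated and 148, 149, 174 and 155 CPM when unmated. Mated libraries were above unmated ones in Actin controls and below them in whole guts, and the log2 difference was 2.62 (SE 0.36, adjusted p = 0.000394). The muscle proteins Mp20 and TpnC73F, a troponin C, differed by 1.03 (SE 0.16, adjusted p = 0.000827) and 1.03 (SE 0.16, adjusted p = 0.001). Act57B, at 1.68, TpnC47D, at 1.51, Mlc2, at 0.94, and wupA, the troponin I gene, at 0.71, completed the called muscle genes, and Mlc2 and wupA lost their calls under 3 and 10 settings.

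Enterocyte markers gave 2 higher and 1 lower of 14, with summed levels of 22417 to 35549 CPM in mated and 22755 to 31626 CPM in unmated Actin control guts and 13183 to 14563 CPM in mated and 18386 to 26852 CPM in unmated whole guts. The whole gut ranges did not overlap and the Actin control ranges did. betaTry, also counted among the trypsins, made up 6078 to 6815 CPM of the sum in mated and 9978 to 16887 CPM in unmated whole guts. The sum is thus in large part the level of 1 digestive gene. With mating in whole guts, 5 of the 14 markers had positive and 9 negative values (median -0.11), and 3 were called lower. The called enterocyte markers were betaTry and mag, described above, and Pebp1. Pebp1 (FBgn0038973; chromosome 3R, 22466034 to 22466679, plus strand) had 4256, 4964, 5324 and 5715 CPM in mated and 2129, 1613, 3384 and 3470 CPM in unmated Actin control guts, and 1151, 1170, 1602 and 1263 CPM in mated and 3682, 4217, 4099 and 3576 CPM in unmated whole guts. Both experiments kept its groups apart in opposite order, and the log2 difference was 2.52 (SE 0.29, adjusted p = 0.000101). The part of these summed levels in the results for digestive genes was not tested.

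Enteroendocrine markers gave 2 lower of 20, which were IA-2, a protein of secretory granules, at -0.47 (SE 0.13, adjusted p = 0.0323), and the peptide hormone CCHa2, at -0.68 (SE 0.19, adjusted p = 0.0409), and both lost their calls under 13 settings. Malpighian tubule markers gave 2 higher of 17, Picot, a phosphate cotransporter, at 1.73 (SE 0.29, adjusted p = 0.00139), and Irk1, a potassium channel, at 1.02 (SE 0.30, adjusted p = 0.046), which lost its call under 13 settings. Their summed level was 788 to 1041 CPM in mated and 534 to 763 CPM in unmated Actin control guts, and 559 to 898 CPM in mated and 1055 to 1453 CPM in unmated whole guts. These ranges did not overlap in either experiment, with mated guts above unmated ones in Actin controls and below them in whole guts. Picot alone held a large part of each sum, so the sums largely restate that gene. With mating, 16 of the 17 markers had positive values in Actin controls (median 0.41). In whole guts 7 were positive and 10 negative (median -0.09), so the markers did not fall together there. The part of attached tubules in other results was not tested. Picot had 565, 498, 697 and 696 CPM in mated and 399, 282, 526 and 388 CPM in unmated Actin control guts, and 409, 260, 455 and 439 CPM in mated and 688, 788, 1018 and 880 CPM in unmated whole guts.

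**Figure D5:**
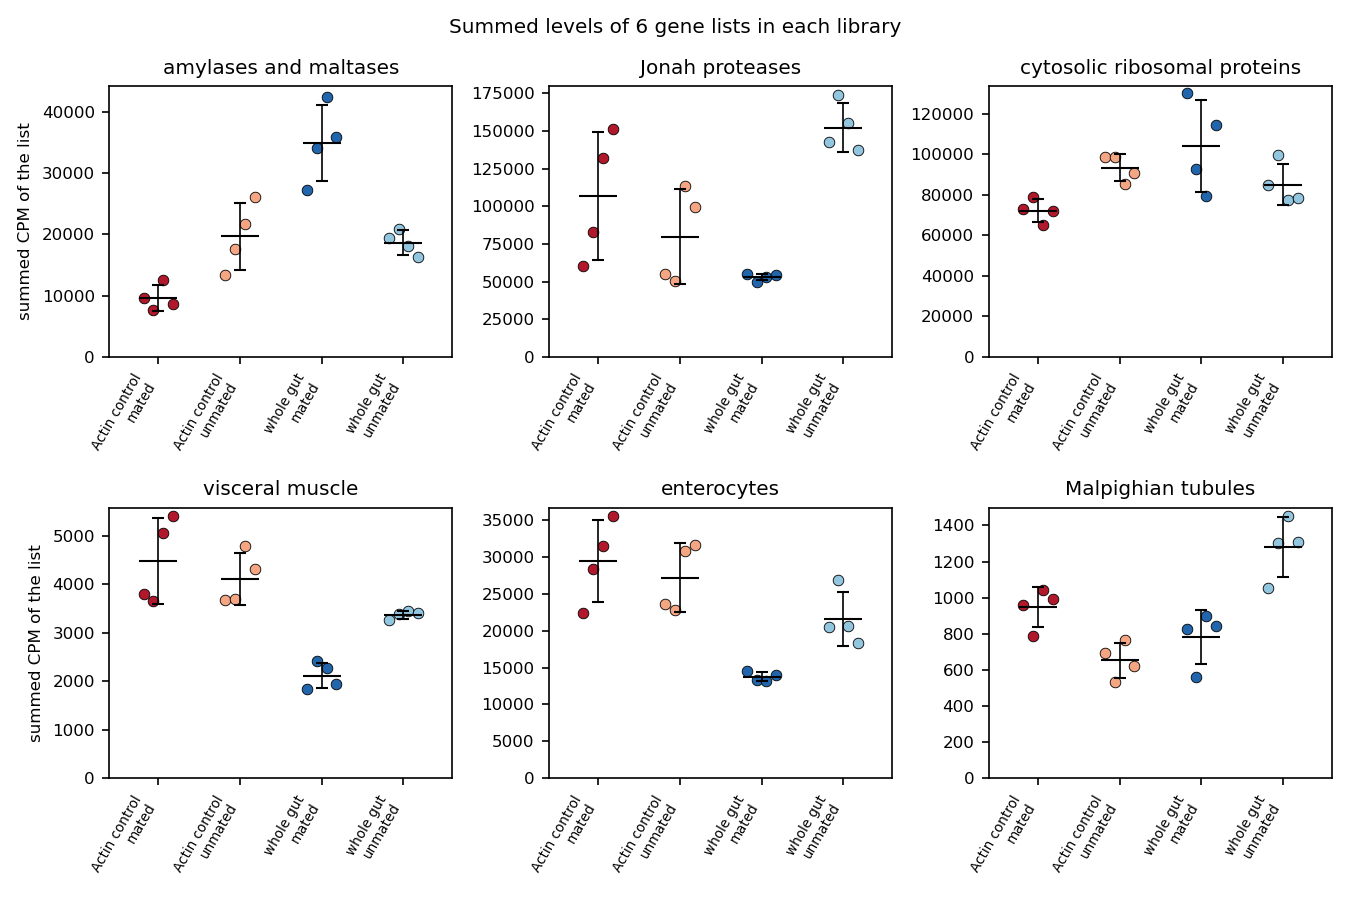
Summed CPM of 6 gene lists in the 16 libraries, 1 point per library, with the mean and SD of the 4 libraries of each group. The amylases and maltases are lowest in mated Actin control and highest in mated whole guts, and the summed muscle and enterocyte markers of mated whole guts lie below those of unmated whole guts.

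No marker of progenitors was called. Of 17 tested, edgeR and DESeq2 called none in the difference and 1 was lower at an unadjusted p under 0.05, and their median was 0.06. Of 39 genes of the cell cycle and replication edgeR called none, 4 were higher at an unadjusted p under 0.05 and DESeq2 called 1 higher, with a median of 0.29. Their median change with mating was 0.44 in Actin controls and 0.11 in whole guts. EdgeR called none in either, while 14 were higher and 2 lower in Actin controls and 1 was lower in whole guts at an unadjusted p under 0.05, and DESeq2 called 2 higher in Actin controls and none in whole guts. EdgeR also called none of 13 heat shock genes (2 higher at an unadjusted p under 0.05, 2 higher by DESeq2), 32 proteasome subunits (1 lower and 0) and 16 genes of peptidoglycan recognition and Relish (3 lower and 0). It called none of 11 genes for peritrophins and mucins, where unadjusted p-values under 0.05 went to 1 higher and 1 lower gene and DESeq2 called 1 lower.

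For the unfolded protein response, antimicrobial peptides, septate junctions, mitochondrially encoded genes and markers of haemocytes, fat body, ovary and trachea, no gene was called by edgeR or DESeq2 and none had an unadjusted p under 0.05. Of 8 markers of neurons and glia 3 were lower at an unadjusted p under 0.05 and none was called by either tool. The summed fat body level was 213 to 714 CPM in mated and 124 to 445 CPM in unmated Actin control guts, and 237 to 1487 CPM in mated and 294 to 918 CPM in unmated whole guts. The ovary sum reached at most 30.2 CPM in any library. With 4 pools per group, a list without calls is not shown to respond alike in both experiments.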

How the data were processed

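The authors deposited whole-number counts of reads per gene from directional poly(A) libraries, and STAR, HTSeq, DESeq2 and the builds BDGP6 and dm6 are named per the submitters' processing notes. Neither versions nor the strand setting is given in the sources used here, so reads of overlapping genes may be shared. Both count tables were joined by gene ID, which left out 303 genes of the Actin table (0.0054% of its gene counts) and 532 of the whole gut table (0.0067%). The tables held 16 columns that were not used. Positions and symbols come from the BDGP6.54 annotation.

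All 16 libraries were fitted with 4 groups in edgeR 4.0.16 (R 4.3.3) by quasi-likelihood with TMM scaling, after edgeR's filter on low counts (filterByExpr, minimum count 10, minimum total 15). Adjusted p is the Benjamini-Hochberg value over 9209 genes, with a threshold of 0.05. SE is the log2 value divided by the square root of F. The code was tested on simulated data. Libraries are pools, and whether the pools came from separate cultures is not stated, so p-values measure the spread between pools. Every pair of replicates differed beyond sampling noise (chi-square per degree of freedom of at least 18.8).

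Named genes were EcR, the 8 highest and 8 lowest differences among called genes whose log2 CPM averaged 3 or more, the 6 smallest adjusted p-values among genes called in both comparisons in opposite directions, and 3 called members per list with at least 2. Others were named after their values were seen, and 1 gene is not reported here. The members and lists were chosen with earlier results of these data known. Alternatives were DESeq2 1.42.0, limma-voom (limma 3.58.1) with sample weights, scaling by DESeq2 size factors or by upper quartiles, a minimum count of 50 or none, a replicate block, the EcR RNAi libraries in the fit, each experiment alone, and each library left out. Mating in EcR RNAi guts was compared after the data had been seen.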

Additional observations from a re-analysis of the deposited data

Results flagged for a closer look

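Each of 114 named genes is listed because its mating response differed between Actin control and whole guts by edgeR's test of that difference. Values are log2 differences of mating responses, Actin control minus whole gut, and their errors and adjusted p-values stand beside the levels above. For starch and sugar enzymes they were -5.61 for Amyrel, -4.59 for tobi, -3.09 for Mal-A7, -2.62 for Mal-A8, -2.27 for Mal-A1 and -1.91 for Mal-A6. For proteases they were 4.72 for Jon25Bii, 3.32 for Jon25Bi, 2.22 for Jon65Aiii, 1.88 for yip7, 1.61 for epsilonTry, 0.98 for betaTry and -7.06 for Try29F. The lysozyme LysB had 2.21. Lysosomal enzymes had 1.82 for LManVI, 1.64 for LManII, 1.44 for LManV and -1.20 for Gal. Alkaline phosphatases had 4.94 for Alp2, 3.23 for Alp9, 3.12 for Alp10, 0.72 for Alp5 and 0.59 for Alp6.

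Transporters had 3.25 for CNT2, 2.46 for CG8785, 1.67 for slif, 1.25 for path, -3.07 for CG1139, 1.73 for Picot and 1.02 for the channel Irk1. Sterol and fat genes had 8.04 for Npc2c, -1.96 for Npc2e, -1.33 for Npc1b, -1.68 for mag, -6.53 for Lip3, 1.29 for Lip4, 2.79 for CG17192, 2.02 for bmm, 2.72 for Lsd-1, -1.85 for Fatp3 and 0.54 for Agpat3. Further lipid enzymes had -0.93 for Men, -0.84 for mdy, -0.65 for mino, -1.73 for Mcad and -2.38 for whd. Sugar and amino acid metabolism had -0.74 for Pgi, -0.55 for Pglym78, -0.61 for Gapdh2, -2.10 for fbp, 1.48 for PCB, -2.76 for Sodh-1, 1.28 for Gs2 and -1.97 for Cbs. Insulin and TOR regulators had -1.96 for Thor, -0.80 for Lnk, -0.64 for REPTOR-BP and 2.39 for Ilp3.

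Detoxification genes had -4.13 for Cyp28d1, -1.63 for Cyp6g1, -1.31 for Cyp6a23, -2.46 for GstT4, -0.97 for GstE7, -0.75 for GstO2, -2.79 for Ugt35C1, -1.55 for Ugt303A1, -1.18 for Ugt304A1, 0.42 for Ugt316A1 and -1.45 for AOX1. Metal and antioxidant genes had -2.56 for MtnC, -1.56 for MtnD, -1.42 for MtnE, -1.41 for MtnA, -2.04 for Zip42C.1, 0.62 for ATP7, 1.03 for Sod3, 0.90 for Keap1, -0.68 for Cat and -2.14 for Prx2540-1. Ribosomal and nucleolar genes had -0.93 for RpS14b, -0.84 for RpL39, -0.82 for RpL21 and -0.62 for Non1. Mitochondrial and vacuolar ATPase genes had 1.08 for Cyt-c-p, 0.55 for RFeSP, 0.50 for ATPsynC, 0.49 for SdhD, 0.46 for SdhA and 1.00 for Vha100-5. Signalling and regulatory genes had 8.93 for E(spl)m6-BFM, 0.84 for GATAe, -0.69 for Eip93F, -0.59 for Met, -0.74 for spi, -0.57 for Socs16D and -1.09 for Dronc. Cell type markers had 2.62 for Act87E, 1.68 for Act57B, 1.51 for TpnC47D, 1.03 for Mp20, 1.03 for TpnC73F, 0.94 for Mlc2, 0.71 for wupA, 2.52 for Pebp1, -0.47 for IA-2 and -0.68 for CCHa2. Genes with no role given here had -6.78 for CG34040, -4.72 for CG15199, -4.23 for CG32444, -2.97 for CG6012, 4.13 for CG31324, 3.48 for CG31259, 3.15 for CG32751 and 2.18 for CG1532.

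In 26 of 460 groups of 4 libraries examined, 1 library stood apart from the other 3 by a gap over Dixon's 95% limit, which chance gives in about 1 of 20 groups. In mated Actin control guts the libraries that stood apart had 791 CPM of Alp10, 300 CPM of Gal and 1.37 CPM of Npc2c. In unmated Actin control guts they had 77.6 CPM of CG32444, 188 CPM of Alp9, 749 CPM of GstT4 and 13 CPM of CG1139. In mated whole guts the low ones had 68.2 CPM of CG1532, 6078 CPM of betaTry, 334 CPM of whd, 80.6 CPM of path, 35.5 CPM of MtnD, 162 CPM of IA-2, 59.6 CPM of Socs16D, 111 CPM of GATAe and 74.8 CPM of bmm. Library 2 was the low one for CG1532, betaTry, path, MtnD and bmm. The high ones of mated whole guts had 2440 CPM of LManVI, 99.5 CPM of Eip93F, 23.2 CPM of Ugt316A1 and 58.5 CPM of fbp. In unmated whole guts the libraries that stood apart had 120 CPM of Pgi and 578 CPM of Gapdh2, both library 2, and 283 CPM of CG8785, 251 CPM of bmm, 160 CPM of PCB and 1299 CPM of AOX1, all library 1.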

How the results depend on the processing

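Of 114 named genes called in the difference, 77 kept their call under all 24 other settings and 3 (Npc2c, Lip3 and E(spl)m6-BFM) under 23, having been removed by a minimum count of 50. None changed sign, and 34 lost the call under 1 to 16 settings, with adjusted p-values of at most 0.156 by edgeR, DESeq2 or limma-voom. For the difference, limma-voom with sample weights called 1301 genes, 564 higher and 737 lower, and adding the EcR RNAi libraries to the fit called 443 higher. Leaving out each library in turn gave 481 to 1155 genes, 203 to 470 higher and 254 to 685 lower. For mating in Actin control guts the count of 152 was 417 with DESeq2 (183 higher, 234 lower), 649 with limma-voom (271 and 378), 243 with the EcR RNAi libraries (101 and 142) and 266 with the experiment fitted alone (109 and 157). It was 55 to 216 with each library left out (21 to 82 higher, 30 to 134 lower). The total was 73, 55 and 75 without mated Actin control libraries 1, 2 and 3, and 59, 67 and 100 without unmated Actin control libraries 2, 3 and 4. For mating in whole guts the experiment alone gave 376 genes (197 higher, 179 lower), DESeq2 gave 427 lower, the EcR RNAi libraries in the fit gave 425 lower, and leaving out each library gave 411 to 886 (215 to 478 higher, 196 to 408 lower).

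Genes called in both mating comparisons in opposite directions were 142 with DESeq2, 199 with limma-voom, 43 with each experiment alone and 25 to 98 with each library left out. In the same direction there were 11 with DESeq2, 13 with limma-voom, 1 with a minimum count of 50, 4 with the EcR RNAi libraries in the fit, 2 with each experiment alone and 0 to 4 with each library left out. The Pearson correlation changed sign to 0.0271 with DESeq2. The difference of EcR, which was -0.09 and not called, changed sign to 0.09 with limma-voom. With each library left out it ranged from -0.18 to 0.01, and it changed sign to 0.01 without unmated whole gut library 2. The cause of these changes was not tested. Replicate numbers were not taken to pair the samples, since the labels do not say that they do and not every same-numbered pair deviated together. Deviations of same-numbered mated and unmated libraries had correlations of 0.0669 to 0.244 in Actin controls and -0.0935 to 0.271 in whole guts, and mated Actin control library 2 correlated best with unmated library 1. Within Actin control libraries 1 and 2, and within 3 and 4, the 8 mated and unmated combinations had correlations of 0.0669 to 0.346, and the other 8 had -0.373 to -0.0604. With the replicate block the counts were 676 for the difference, 172 for Actin controls, 558 for whole guts, 70 in opposite directions and 3 in the same direction, and 23 ribosomal proteins were lower. The block gave 11 Jonah proteases higher in the difference, and for mating 1 higher in Actin controls and 13 lower in whole guts. With 4 pools a group, small changes of variable genes were not detectable.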
